A study of Homo sapiens with 8 samples.

Results

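The claudins are described here in AB8/13 cells with and without knockdown of ATOH8. The 10 claudin genes were CLDN1, CLDN2, CLDN3, CLDN4, CLDN5, CLDN7, CLDN11, CLDN12, CLDN15 and CLDN23, out of 24 claudin genes looked for in a count table of 60564 genes. They were found by gene symbol, and they were picked with the difference between the groups already known. Their own differences are therefore a description, no p-value is given for them, and nothing is supported with them. AB8/13 is a conditionally immortalised human podocyte line, and podocytes form the outer, filtering cell layer of the kidney glomerulus. The control group consisted of 4 libraries from cells transfected with a non-targeting shRNA. The ATOH8 knockdown group consisted of 4 libraries from cells transfected with an shRNA against ATOH8, a basic helix-loop-helix transcription factor. All cells were grown at 33 °C and then kept at 37 °C for 5 days to differentiate. All 8 libraries come from 1 cell line, and the sources used here give neither the sequence nor the number of the shRNAs.

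Claudins are small membrane proteins with 4 transmembrane segments that polymerise into the strands of the tight junction. Through their extracellular loops they bind claudins of the neighbouring cell and set whether the space between the cells is sealed or lets selected ions and water pass, while most bind the scaffold protein ZO-1 through their C-terminal tail. In the kidney the mix of claudins differs along the nephron: claudin-5 is known as the main claudin of podocytes, claudin-1 of the parietal cells of Bowman's capsule, claudin-2 of the proximal tubule, and claudin-3, claudin-4 and claudin-7 of distal segments.

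Total counts per library ran from 21108695 to 27109043. Levels are given as CPM, the counts of a gene scaled to a common library total after TMM normalisation, with the SD over the 4 libraries of a group. ATOH8 itself was at 6.56, 6.0, 5.80 and 4.97 CPM in the control libraries and at 2.19, 2.79, 2.63 and 2.11 CPM in the knockdown libraries, so the groups did not overlap (two-sided exact permutation test over 70 assignments, p = 0.0286, the smallest that 4 libraries against 4 allow). Of the defining podocyte markers, NPHS1 (nephrin) had 2, 0, 0 and 0 counts in control and 6, 5, 3 and 2 counts in knockdown libraries. WT1, a transcription factor of podocytes, stood at 5.61 ± 0.526 CPM in control and 4.95 ± 0.551 CPM after knockdown (SD, n = 4). Nephrin, a defining marker of mature podocytes, was thus nearly absent from these libraries.

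After ATOH8 knockdown the cells held more CLDN11, CLDN4 and CLDN15 RNA and less CLDN2 and CLDN12 RNA, while CLDN1, the claudin with by far the highest level, differed by less than the spread between libraries. Of the 10 claudins, 8 had enough counts for the fit over all genes, and CLDN5 and CLDN7 did not. Of these 8, 3 were called higher, 2 were called lower and 3 were not called (edgeR quasi-likelihood test, adjusted p below 0.05). Over all 16884 genes tested, 51.1% were called, 25.2% higher and 25.9% lower. The groups did not overlap for 6 of the 8, against 45.6% of all genes tested. These counts are printed for reference only, since the choice of the claudins used this comparison. CLDN11 passed the filter on low counts only through the knockdown libraries, so it had to differ. The median log2 fold change of the 8, knockdown against control, was 0.21, against 0.00 over all genes tested.

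**Figure D1:**
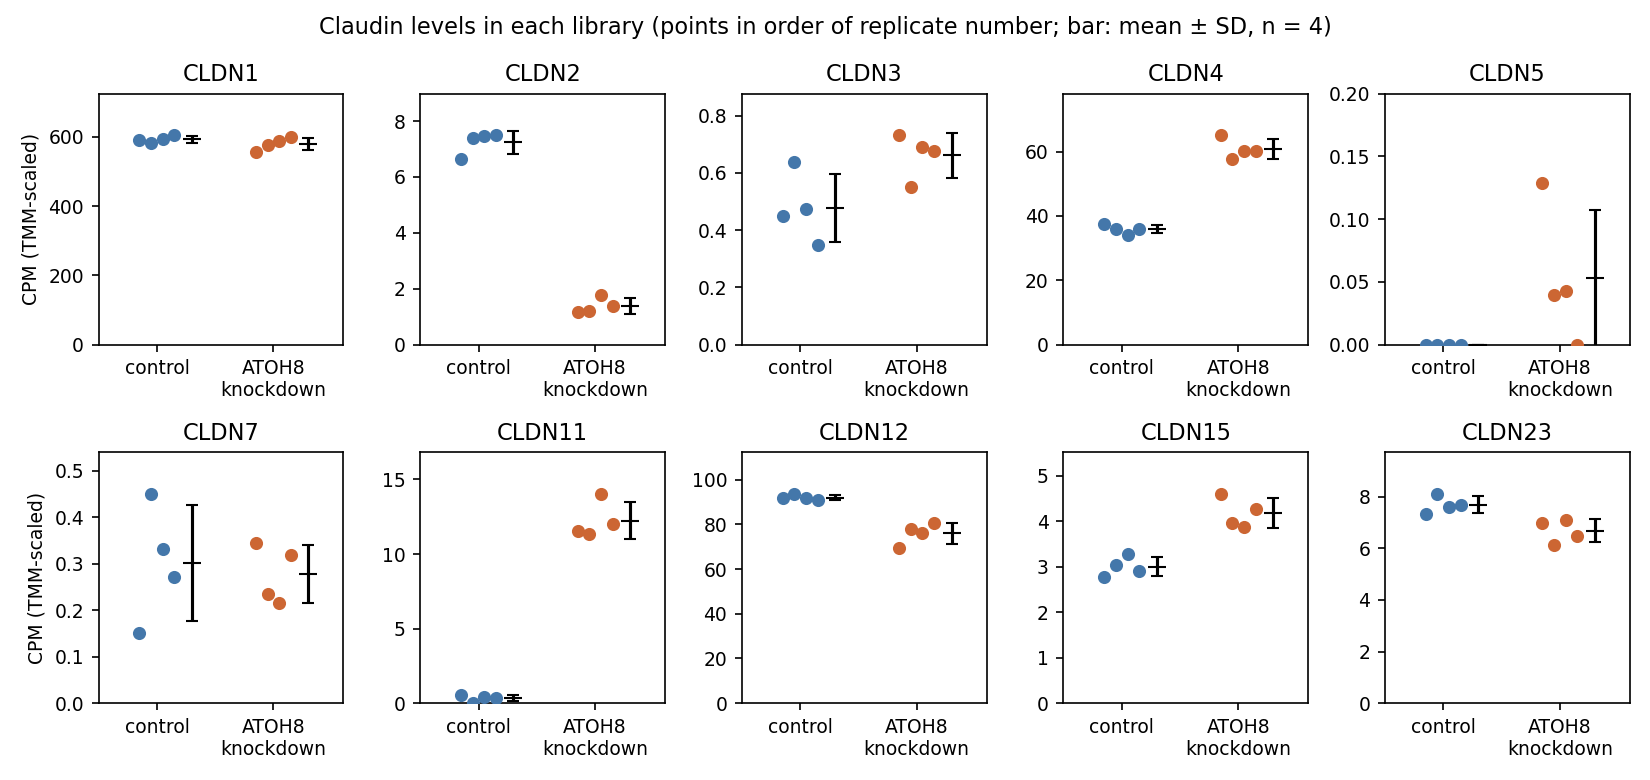
Levels of the 10 claudins in each library, in CPM on a linear axis from 0, with 1 panel per gene, 1 point per library and the mean ± SD of the 4 libraries beside them. The knockdown libraries lie above all control libraries for CLDN4, CLDN11 and CLDN15 and below them for CLDN2, CLDN12 and CLDN23.

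CLDN11 encodes claudin-11, which forms the tight junction strands of central nervous system myelin and of the Sertoli cell barrier of the testis. It had 14, 1, 9 and 9 counts in the control libraries and 269, 289, 326 and 301 counts in the knockdown libraries. Scaled to CPM, the control libraries were at 0.525, 0.0375, 0.428 and 0.349 and the knockdown libraries at 11.6, 11.3, 14.0 and 12. All 4 knockdown libraries were high, and control replicate 2 was the lowest of all. The log2 fold change was 5.19 (SE 0.229), the largest among the claudins fitted, and it ran from 4.79 to 5.53 over the 13 alternative fits. GENCODE release 29 places 3 genes over CLDN11 on the same strand (AC026316.5, MIR6828 and AC026316.4), all at 0.216 CPM or less in each group. That is far below the knockdown level of CLDN11. In control AC026316.4 was at 0.213 CPM, near the 0.335 ± 0.211 CPM of CLDN11, and how shared reads were counted was not given. RefSeq lists 2 start sites for CLDN11 on chromosome 3 (plus strand, GRCh38.p14). The 250 bases before each are shown because this gene went from near the detection floor to a clear level; E-boxes, the CANNTG words that helix-loop-helix proteins as a class bind, are in capitals.

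CLDN11, first start, chr3:170418618-170418867: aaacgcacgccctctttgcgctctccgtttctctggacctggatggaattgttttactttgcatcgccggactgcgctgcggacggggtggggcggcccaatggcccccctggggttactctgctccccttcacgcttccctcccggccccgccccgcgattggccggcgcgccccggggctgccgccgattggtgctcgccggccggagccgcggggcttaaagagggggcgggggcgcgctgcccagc
CLDN11, second start, chr3:170420976-170421225: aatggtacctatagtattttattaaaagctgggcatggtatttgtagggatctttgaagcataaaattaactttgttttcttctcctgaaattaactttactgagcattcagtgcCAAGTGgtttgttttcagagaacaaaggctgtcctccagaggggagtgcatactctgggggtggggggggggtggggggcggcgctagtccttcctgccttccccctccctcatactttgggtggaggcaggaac

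The window before the first start is rich in CpG, with 29 CpG pairs against a median of 11 over the 35116 promoter windows of the same length, and it holds no E-box. The window before the second start has 2 CpG pairs and 1 E-box, CAAGTG. An E-box, which reads as CANNTG on both strands, is found in 61.8% of all such windows. Which of the 2 starts was used in these cells cannot be read from counts per gene.

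CLDN2 encodes claudin-2, which forms a channel for small cations and water and is abundant in the proximal tubule. It was at 6.64, 7.39, 7.46 and 7.49 CPM in control libraries and at 1.16, 1.22, 1.76 and 1.39 CPM in knockdown libraries. The groups stood well apart, with every knockdown library at a small part of the lowest control library. The log2 fold change was -2.39 (SE 0.132), which left 19.1% of the control level. CLDN2 overlaps MORC4 on the opposite strand, and MORC4 was far more abundant, at 143 ± 4.89 CPM in control and 150 ± 3.07 CPM after knockdown. The sources used here do not give the strand setting, so reads of both genes may not have been told apart. RefSeq lists 2 starts of CLDN2 on the X chromosome (plus strand, GRCh38.p14), and the 250 bases before each are printed because this gene fell most among the claudins.

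CLDN2, first start, chrX:106899914-106900163: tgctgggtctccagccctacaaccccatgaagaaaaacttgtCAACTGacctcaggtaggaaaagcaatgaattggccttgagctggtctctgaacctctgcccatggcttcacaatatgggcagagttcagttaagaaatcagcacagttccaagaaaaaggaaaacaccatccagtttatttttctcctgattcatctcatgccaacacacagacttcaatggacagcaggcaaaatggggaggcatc
CLDN2, second start, chrX:106918110-106918359: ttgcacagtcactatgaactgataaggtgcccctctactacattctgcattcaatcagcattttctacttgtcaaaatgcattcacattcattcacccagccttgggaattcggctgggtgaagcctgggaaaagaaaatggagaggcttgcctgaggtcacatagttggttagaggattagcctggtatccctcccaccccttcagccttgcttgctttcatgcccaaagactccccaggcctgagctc

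Unlike the first window of CLDN11, those of CLDN2 are poor in CpG, with 0 and 1 CpG pairs. The first holds 1 E-box, CAACTG, and the second none.

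CLDN4 encodes claudin-4, a sealing claudin of distal nephron and other epithelia that restricts cations. Its levels were 37.6, 36.0, 34.2 and 36.0 CPM in control and 65.1, 57.7, 60.3 and 60.3 CPM after knockdown. The lowest knockdown library exceeded the highest control library by a wide margin relative to the spread within either group. The log2 fold change was 0.76 (SE 0.0440), or 1.69-fold, with 720 to 1515 counts per library behind it. The 250 bases before its start on chromosome 7 (plus strand, GRCh38.p14) are given to compare with those of CLDN11.

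CLDN4, chr7:73830746-73830995: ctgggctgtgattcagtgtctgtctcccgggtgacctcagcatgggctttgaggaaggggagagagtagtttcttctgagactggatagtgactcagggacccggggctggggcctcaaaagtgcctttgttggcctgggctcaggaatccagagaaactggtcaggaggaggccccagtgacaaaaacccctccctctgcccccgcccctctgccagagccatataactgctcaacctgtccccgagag

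This window holds 4 CpG pairs, 1 GC box (GGGCGG on either strand, present in 42.6% of windows) and no E-box. In all, 5 of the 11 RefSeq windows read for 8 of the claudins held an E-box. Windows on chromosome 8, where CLDN23 lies, were left out, and none was found for CLDN5. The window with most was 1 of the 2 of CLDN7, with 4 copies of CAGGTG or CACCTG, the E-box known to be bound by Snail proteins. That word occurs at least once in 17.5% and at least 4 times in 0.122% of all windows.

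CLDN3 encodes claudin-3, another sealing claudin, whose gene lies in the same chromosome 7 region as CLDN4. It was near the limit of the filter, with 12, 17, 10 and 9 counts in control and 17, 14, 16 and 17 counts in knockdown libraries. Its log2 fold change came to 0.46 (SE 0.286) with a 95% interval from -0.13 to 1.04, so the groups overlapped and a change as large as that of CLDN4 lies within the interval. CLDN7, which encodes claudin-7 of the distal nephron, had 4, 12, 7 and 7 counts in control and 8, 6, 5 and 8 in knockdown libraries, too few for the fit. CLDN7 overlaps ELP5 on the opposite strand, at 30.1 and 24.8 CPM.

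CLDN5, the podocyte claudin, was hardly detected. It had 0 counts in all 4 control libraries and 3, 1, 1 and 0 counts in knockdown libraries. A count of 0 allows up to 3 counts, which corresponds to between 0.112 and 0.143 CPM in these libraries for counting error alone. A difference in CLDN5 within that limit was not detectable at this depth, and no fold is given.

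CLDN15 and CLDN12 differed by less than 1.5 times. CLDN15, which encodes a cation channel-forming claudin of the intestine, was at 2.77, 3.04, 3.28 and 2.91 CPM in control and 4.60, 3.97, 3.87 and 4.26 CPM after knockdown (log2 fold change 0.48, SE 0.124). CLDN12, which encodes a claudin without the usual PDZ-binding tail, was at 92.0, 93.6, 91.6 and 90.7 CPM in control and 69.4, 77.9, 76.2 and 80.4 CPM after knockdown. Neither gene's groups overlapped. The log2 fold change of CLDN12 was -0.27 (SE 0.0389). CLDN12 shares its strand with the overlapping genes GTPBP10 and CDK14. CDK14 stood at 31.4 and 31.5 CPM (log2 0.00, edgeR adjusted p = 0.964). GTPBP10 stood at 38.5 and 32.3 CPM with a log2 difference of -0.25 (SE 0.0447, edgeR adjusted p = 2.24e-05), and the sources used here do not say how shared reads were counted.

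CLDN23, a less studied claudin with a long C-terminal tail, was at 7.31, 8.11, 7.60 and 7.68 CPM in control and 6.97, 6.13, 7.10 and 6.49 CPM after knockdown. The groups did not overlap, but the gap between the lowest control and the highest knockdown library was small. The log2 fold change was -0.20 (SE 0.0877). Over the 13 alternative fits it ran from -0.24, without knockdown replicate 3, to -0.16. CLDN23 was not called with all libraries but was called lower in 2 of these 13 fits.

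CLDN1 encodes claudin-1, a sealing claudin of epidermis and of parietal epithelial cells, and it dominated the family in both groups. It was at 590, 581, 594 and 604 CPM in control and at 557, 576, 586 and 598 CPM after knockdown, ranges that overlap. Its log2 fold change of -0.03 (SE 0.0303) had a 95% interval from -0.09 to 0.03, which is narrow because 12498 to 15731 counts per library lay behind it.

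**Figure D2:**
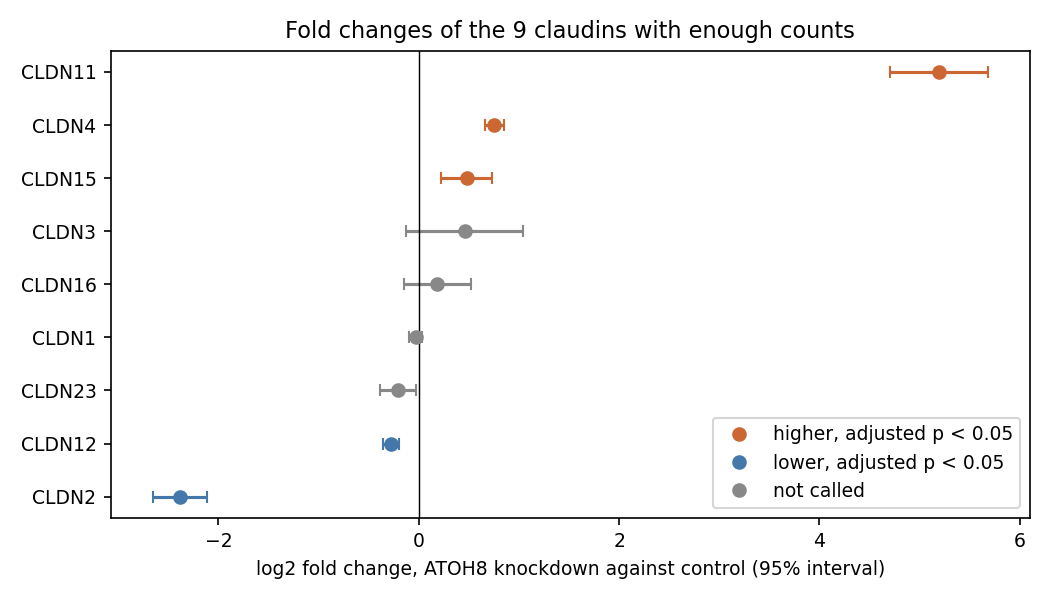
Log2 fold change of ATOH8 knockdown against control for the 8 claudins fitted and CLDN16, with 95% intervals that are not adjusted for the number of genes. CLDN11 at 5.19 and CLDN2 at -2.39 stand apart from the other claudins, which lie between -0.27 and 0.76.

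Levels can be compared between genes only per length, so CPM was also divided by the length of the exons of each gene in GENCODE release 29 (CPM per kb). On that scale CLDN1 reached 162 ± 2.55 CPM per kb in control libraries, followed by CLDN12 (13.6 ± 0.181), CLDN4 (7.65 ± 0.290), CLDN23 (3.54 ± 0.151), CLDN2 (2.12 ± 0.120) and CLDN15 (1.04 ± 0.0744). CLDN3 (0.375 ± 0.0939) came next, and CLDN7 (0.121 ± 0.0502) and CLDN11 (0.0897 ± 0.0565) did not differ beyond their spread. In knockdown libraries CLDN1 (158 ± 4.72 CPM per kb) was followed by CLDN4 (12.9 ± 0.654) and CLDN12 (11.3 ± 0.699), whose order turns when coding length is used in place of exon length. CLDN11 (3.28 ± 0.329) and CLDN23 (3.08 ± 0.207) overlapped, as did CLDN3 (0.519 ± 0.0613) and CLDN2 (0.406 ± 0.0799). Neither overlap held per coding length, where CLDN11 was at 19.7 ± 1.98 and CLDN23 at 7.62 ± 0.512 CPM per kb, and CLDN2 at 2.01 ± 0.395 stood above CLDN3 at 1.00 ± 0.118. By exon length CLDN11 stood 11th of all 24 claudins in control, within the spread of CLDN7 and CLDN6, and 4th in knockdown libraries, and CLDN2 stood 5th and then 9th. By coding length CLDN11 stood 9th and 4th, and CLDN2 4th and 8th.

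The summed level of all 24 claudins per length differed by less than the spread, at 191 ± 2.25 CPM per kb in control and 192 ± 4.94 CPM per kb in knockdown libraries (SD, n = 4). CLDN1 made up 84.6% ± 0.356 of that sum in control and 82.3% ± 0.483 in knockdown libraries. Without CLDN1 the sum was 29.4 ± 0.380 CPM per kb in control and 34.1 ± 0.730 CPM per kb in knockdown libraries, and the groups did not overlap. Of the whole sum, CLDN11 took 0.0468% ± 0.0296 in control and 1.70% ± 0.154 in knockdown libraries, CLDN4 took 4.00% ± 0.168 and 6.74% ± 0.464, CLDN12 took 7.14% ± 0.176 and 5.86% ± 0.251, and CLDN2 took 1.11% ± 0.0596 and 0.211% ± 0.0382. These are shares of RNA and say nothing of the protein in the junction.

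**Figure D3:**
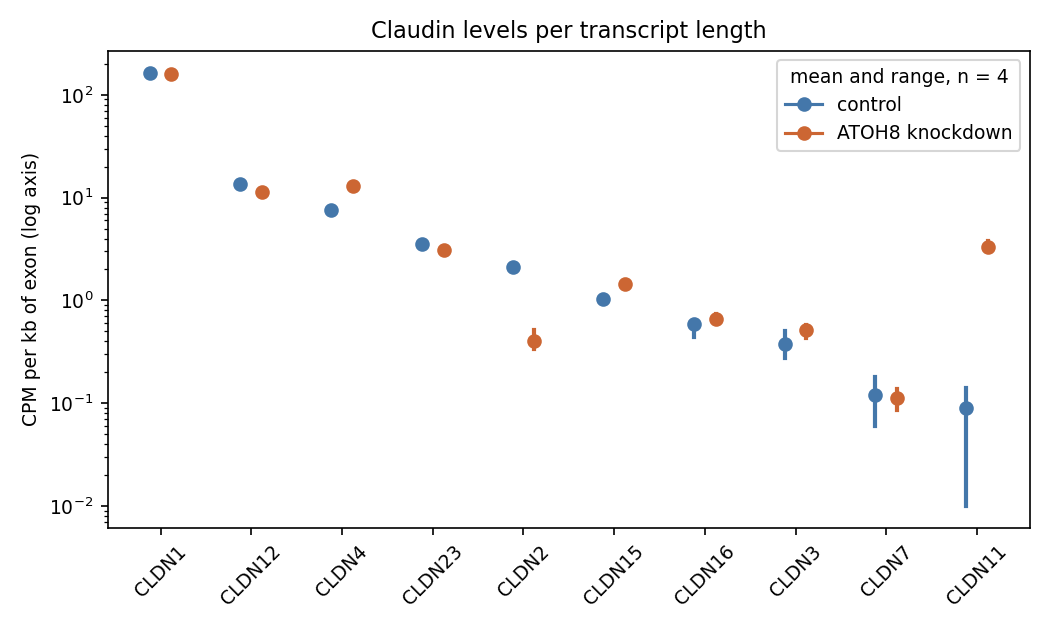
Level per exon length (CPM per kb, log axis) of 9 of the 10 claudins and CLDN16, ordered by the control mean, with points for the mean and lines for the range of 4 libraries in each group. CLDN1 lies far above every other claudin in both groups, and CLDN11 moves from the bottom of the control order to beside CLDN23; CLDN5, at 0 in control, is not drawn.

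Of the 14 other claudin genes, 5 had no count in any library (CLDN8, CLDN17, CLDN18, CLDN20 and CLDN25). CLDN16, a paracellular channel protein of the thick ascending limb, was the only one with enough counts to test, at 2.10 ± 0.358 CPM in control and 2.37 ± 0.199 CPM after knockdown (log2 0.18, SE 0.163, edgeR adjusted p = 0.369). CLDN6 had 2 to 6, CLDN9 had 1 to 6 and CLDN10 had 1 to 9 counts per library. CLDN14, CLDN19, CLDN22, CLDN24 and CLDN34 had between 0 and 4.

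The genes next to CLDN11 and CLDN2 on their chromosomes did not move as far as these claudins. Beside CLDN11, PRKCI, which encodes the atypical protein kinase C of the polarity complex, rose from 123 ± 2.84 to 161 ± 5.61 CPM (by 0.39 in log2, SE 0.0335, edgeR adjusted p = 5.63e-11). SKIL, which encodes a repressor of SMAD proteins and lies directly before CLDN11, fell slightly (log2 -0.10, SE 0.0400, edgeR adjusted p = 0.0314). That call was lost without control replicate 2 (edgeR adjusted p = 0.0660), 3 (0.0727) or 4 (0.127), without knockdown replicate 1 (0.0831) or 3 (0.132), and by DESeq2 (0.0536). On the other side SLC7A14, a lysosomal transporter, fell (log2 -0.40, SE 0.0311, edgeR adjusted p = 1.16e-11), as did RPL22L1, a ribosomal protein paralogue (log2 -0.25, SE 0.0569, edgeR adjusted p = 0.000810). Beside CLDN2, none of TBC1D8B, RNF128, MORC4 and RBM41 passed the test (log2 between -0.04 and 0.07, edgeR adjusted p = 0.0614 to 0.631). Of these, MORC4 was called without control replicate 2 (adjusted p = 0.0275), without knockdown replicate 3 (0.0396), under the replicate block (0.0386) and with the filter at 1 CPM (0.0373).

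The genes whose profile over the 8 libraries was most like that of CLDN11 were THY1, NGFR and MEG3, with root mean square differences of 1.07, 1.38 and 1.54 in log2 CPM centred on the mean. For CLDN2 they were TGFBR1 (0.173), ADAMTSL4 (0.248) and the pseudogene WFDC21P (0.248). Only genes with a mean log2 CPM of 2 or more were searched, which leaves out genes with a mean as low as that of CLDN11. The likeness to CLDN11 was loose for all 3, which depends on that limit, with THY1 at 1.69 ± 0.264 and 19.1 ± 1.07 CPM. TGFBR1 was nearest to CLDN2 by this measure and went from 253 ± 5.09 to 54.9 ± 3.64 CPM. The measure mostly reflects the difference between the groups, so it does not show that libraries within a group vary together. These genes were chosen by their pattern, so no test is given for them.

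The gene lists from here on, marker lists included, were also chosen with earlier results of these data known. Their counts of calls and adjusted p-values are therefore a description. Of 14 genes for other membrane proteins of the junction, 11 were tested, 4 rose, 1 fell and 6 missed the threshold, a called share near the 51.1% of all genes tested. Their log2 fold changes ran from -0.44 to 0.41 with a median of -0.02, against 0.00 over all genes. Without control replicate 2 or 3, or without knockdown replicate 2, 2 of them were called lower. OCLN, which encodes occludin, was at 16.1, 16.5, 14.7 and 14.1 CPM in control and 17.6, 17.3, 18.2 and 18.4 CPM after knockdown (log2 0.22, SE 0.0619, edgeR adjusted p = 0.00440), with no overlap. F11R, the junctional adhesion molecule JAM-A, rose from 152 ± 5.31 to 169 ± 6.40 CPM (log2 0.15, edgeR adjusted p = 0.000593), and JAM2 rose from 6.72 ± 0.282 to 8.91 ± 0.946 CPM (log2 0.41, edgeR adjusted p = 0.000383). CLMP, an adhesion molecule of the CXADR family, fell from 123 ± 4.55 to 99.5 ± 3.26 CPM (log2 -0.30, edgeR adjusted p = 3.60e-08). BVES, a membrane protein of cell contacts, was called higher (log2 0.12, edgeR adjusted p = 0.0351). Its call was lost without control replicate 3 (0.0841) or 4 (0.0867), without knockdown replicate 1 (0.0892) or 3 (0.101), without a filter (0.0873) and by DESeq2 (0.0751). MARVELD2, which encodes tricellulin, did not pass (log2 0.11, SE 0.0662, edgeR adjusted p = 0.182).

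Scaffold and polarity genes encode proteins that anchor claudins to actin and place the junction along the cell. Of 22 tested, 12 rose, 4 fell and 6 missed the threshold, beside 25.2% higher and 25.9% lower over all genes tested. This list too was chosen with earlier results known, so the larger share that rose is a description only. Those called lower numbered 2 without control replicate 3 and by DESeq2. Their median log2 fold change was 0.19. TJP1, which encodes ZO-1, was at 226, 220, 219 and 206 CPM in control and 246, 255, 242 and 251 CPM after knockdown (log2 0.19, SE 0.0328, edgeR adjusted p = 1.48e-05). The lowest knockdown library was above the highest control library. AMOTL1, an angiomotin that binds junction scaffolds, rose from 146 ± 5.29 to 194 ± 4.60 CPM (log2 0.41), and PRKCI rose as given above. The scaffold MAGI1 (log2 0.48, SE 0.0517) and PARD6G, a partner of atypical protein kinase C (log2 0.51, SE 0.0589), also rose (edgeR adjusted p = 6.52e-09 and 2.83e-08). PARD3, which encodes the polarity scaffold PAR3, fell from 176 ± 3.90 to 155 ± 3.10 CPM (log2 -0.18, edgeR adjusted p = 1.89e-05), and AFDN, which links nectins to actin, fell by 0.14 on the log2 scale (edgeR adjusted p = 0.00136). PARD3B and PATJ fell too, with calls that were less stable. That of PARD3B (log2 -0.13, edgeR adjusted p = 0.0215) was lost without control replicate 3 (0.0726), without knockdown replicate 1 (0.0868) and by DESeq2 (0.0569). That of PATJ (log2 -0.13, edgeR adjusted p = 0.0338) was lost without control replicate 3 (0.118) or 4 (0.0753), without knockdown replicate 3 (0.129) and by DESeq2 (0.0833).

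Genes known to regulate claudins, by transcription, binding, phosphorylation or turnover, included 11 that rose, 4 that fell and 6 that missed the threshold among 21 tested (median 0.29 in log2), where 51.1% of all genes were called, 25.2% higher and 25.9% lower. WNK4, a kinase that phosphorylates claudins in the distal nephron, rose from 6.08 ± 0.191 to 12.6 ± 0.395 CPM (by 1.05 in log2, SE 0.0772, edgeR adjusted p = 2.96e-12), and WNK1 rose by 0.29 on the log2 scale. GRHL3, a grainyhead factor of epithelial barriers, rose from 3.45 ± 0.412 to 6.94 ± 0.377 CPM (log2 1.01, edgeR adjusted p = 5.10e-09). SPINT1, an inhibitor of the matriptase group of membrane proteases, rose from 31.6 ± 0.848 to 46.6 ± 1.07 CPM (log2 0.56), while SPINT2 was called lower (log2 -0.10, edgeR adjusted p = 0.0153). The call of SPINT2 was lost without control replicate 2 (0.0737) or 4 (0.0594) and without knockdown replicate 2 (0.0510). The epithelial transcription factor ELF3 fell from 54.0 ± 2.20 to 36.8 ± 2.18 CPM (log2 -0.56, edgeR adjusted p = 3.51e-11). CUL3, the ubiquitin ligase scaffold that acts with KLHL3, fell by 0.25 on the log2 scale. KLHL3 itself rose from 7.79 ± 0.0726 to 10.4 ± 0.487 CPM (log2 0.42, edgeR adjusted p = 4.35e-05) and is named after its values were seen. ZEB2, a repressor of epithelial genes, fell by 0.29 on the log2 scale. Some other repressors of epithelial genes rose: SNAI1 (log2 0.83, edgeR adjusted p = 0.000324), SNAI2 (log2 0.35, edgeR adjusted p = 0.000684) and TWIST1 (log2 0.38, edgeR adjusted p = 0.000626), which were named after their values were seen. ZEB1, a further repressor in the list, was not called, at 55.9 ± 1.62 and 54.2 ± 5.29 CPM (log2 -0.05, edgeR adjusted p = 0.527). GRHL2 and CDX2 had no count in any library, and EPCAM, which binds claudin-7, did not pass (log2 0.02, SE 0.105, edgeR adjusted p = 0.863).

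In the neighbouring adherens junction, of 13 genes tested 7 rose, 3 fell and 3 missed the threshold (median 0.14 in log2), next to 25.2% higher and 25.9% lower among all genes. CDH4, which encodes R-cadherin, rose from 4.41 ± 0.382 to 19.9 ± 0.934 CPM (by 2.17 in log2, SE 0.0781, edgeR adjusted p = 4.16e-19), the largest change in the junction lists other than those of claudins. NECTIN3 (log2 0.60), CDH6, which encodes K-cadherin (log2 0.55), and NECTIN4 (log2 0.78) rose, and CDH11 (log2 -0.32), CTNND1 (p120 catenin, log2 -0.18) and CTNNA1 (alpha-catenin, log2 -0.11) fell. CDH1, which encodes E-cadherin, had 0 to 3 counts per library, while CDH2, which encodes N-cadherin, was at 309 ± 5.27 and 302 ± 7.71 CPM (log2 -0.03, edgeR adjusted p = 0.415). Of 7 tested genes of the wider claudin-like family, 3 rose, 1 fell and 3 missed the threshold (median 0.11 in log2), a called share near the 51.1% of all genes. CLDND1 fell from 73.8 ± 2.55 to 58.3 ± 1.6 CPM (log2 -0.34, edgeR adjusted p = 1.06e-08), and the epithelial membrane proteins EMP1 (log2 0.30) and EMP2 (log2 0.23) and the junction protein TMEM47 (log2 0.14) rose.

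**Figure D4:**
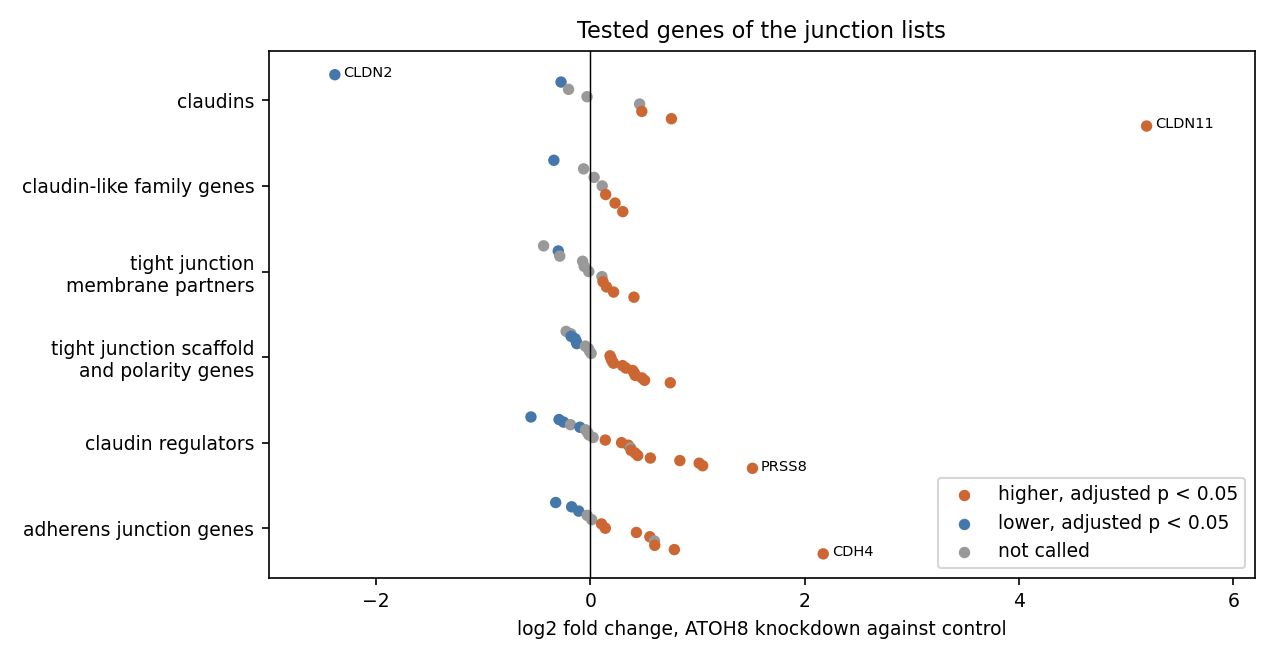
Log2 fold change of ATOH8 knockdown against control for each tested gene of 6 lists, with 1 point per gene coloured by its call. CLDN11, CLDN2, CDH4 and PRSS8 lie farthest from 0; the scaffold list has 12 points called higher and 4 called lower.

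PRSS8, a membrane protease of epithelia labelled in the plot of junction lists, stood at 0.351 ± 0.0543 CPM in control and 1.00 ± 0.197 CPM after knockdown (log2 1.51, SE 0.280) and is named here after its values were seen. With 8 to 11 counts per control library, it passed the filter on low counts only through the knockdown libraries. Its call among the regulators is therefore a description only.

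Markers of cell types known for these claudins were read beside them. The counts of called markers below stand against 25.2% higher and 25.9% lower over all genes tested, and in these bulk libraries fewer cells of a type and less RNA per cell cannot be told apart. Of the called markers, AQP3, CUBN, TEK and VWF passed the filter on low counts only through the knockdown libraries, and ALDH1A1 only through control. Their calls are therefore a description only. For CLDN11, the defining oligodendrocyte and Schwann cell genes SOX10, MOG, MAG, S100B and OLIG2 were at or below 0.0108 CPM in each group. The summed level of that list ran from 70.5 to 75.6 CPM in control and from 85.9 to 93.9 CPM after knockdown, most of it MBP (67.0 ± 2.27 and 75.4 ± 3.24 CPM). Of its 4 tested genes 2 rose, MBP and NGFR (1.62 ± 0.205 to 11.7 ± 1.13 CPM), and both added to the higher sum. Of the Sertoli cell list 4 of 9 genes were tested, and 2 rose and 1 fell. SOX9, 1 of those that rose (log2 0.13, edgeR adjusted p = 0.0417), had overlapping groups. Its call was lost in 8 of the 13 alternative fits. The sum of the Sertoli cell list was 91.6 to 96.7 CPM in control and 84.4 to 92.9 CPM after knockdown. Most of it was CTSL, the gene that fell (63.2 ± 3.37 and 54.3 ± 3.21 CPM). FSHR was at 0, and AMH rose from 2.00 ± 0.294 to 2.81 ± 0.232 CPM.

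For CLDN2, the proximal tubule list had 4 of 10 genes tested, of which 3 rose and 1 fell, with a sum of 94.3 to 109.8 CPM in control and 135.7 to 144.2 CPM after knockdown. The gene that fell was AQP1, the water channel of that segment (5.19 ± 0.927 to 1.14 ± 0.161 CPM, log2 -2.18), whereas the brush border peptidase gene ANPEP rose (28.2 ± 2.57 to 63.8 ± 2.34 CPM). LRP2 (megalin) was at 0.00970 and 0.00995 CPM, and SLC22A6 at 0. For CLDN3, CLDN4 and CLDN7, 3 of 10 distal tubule and collecting duct genes were tested. AQP3 (0.189 ± 0.0518 to 1.06 ± 0.254 CPM) and the sodium channel subunit gene SCNN1A (0.873 ± 0.301 to 1.80 ± 0.493 CPM) rose, AQP2 and UMOD were at 0, and EPCAM, the third, did not pass. The sum, mostly EPCAM (5.15 ± 0.540 and 5.22 ± 0.231 CPM), ran from 6.26 to 7.13 CPM in control and from 8.35 to 9.29 CPM after knockdown.

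For CLDN1, the parietal epithelial list had all 10 genes tested, with 4 higher and 5 lower (51.1% of all genes were called in either direction), and sums of 3233 to 3421 CPM in control and 3245 to 3342 CPM after knockdown. KRT19, a keratin, had the smallest adjusted p of those that rose (203 ± 6.41 to 361 ± 22.9 CPM) and VCAM1, an adhesion molecule, the smallest of those that fell (60.6 ± 3.15 to 22.5 ± 0.867 CPM). For CLDN5, the endothelial list, with 4 of 10 genes tested and 3 higher, summed to 1.91 to 2.91 CPM in control and 9.30 to 10.5 CPM after knockdown, and TIE1 stood at 1.05 ± 0.278 and 6.77 ± 0.335 CPM, while PECAM1 was at or below 0.0119 CPM and EMCN at 0. Of 12 podocyte genes 7 were tested, and 1 rose and 4 fell, where 51.1% of all genes were called. Their sum, carried mostly by KIRREL1 (626 ± 18.2 and 489 ± 12.6 CPM) and CD2AP (227 ± 5.76 and 189 ± 13.3 CPM), was 895 to 927 CPM in control and 711 to 757 CPM after knockdown. The part of any of these marker levels in the claudin differences was not tested.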

How the data were processed

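RNA-seq counts per gene of 8 libraries were used as the authors deposited them. The build hg19 and the tools STAR, featureCounts, FastQC and DESeq2 appear in the submitters' processing notes without versions. The annotation, strand setting and treatment of ambiguous reads were not given in the sources used here. Libraries were directional and made from poly(A) RNA, per the labels' protocols.

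Of 60609 rows, 1 with a missing cell and 44 empty copies of pseudoautosomal genes were left out, which left 60564. A gene-name table gave 60295 symbols and GENCODE release 29 another 250. GENCODE and RefSeq describe GRCh38, so they served for names, lengths, overlaps, gene order and RefSeq promoter windows only.

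Genes were kept by filterByExpr, scaled by TMM and compared with the edgeR 4.0.16 quasi-likelihood test (robust) in R 4.3.3, with Benjamini-Hochberg adjustment over all 16884 genes. Standard errors came from the F statistic. The fit was tested on simulated data. Chi-square per gene between libraries of a group was 1.89 to 4.42, so none agreed within sampling noise. The design text calls the libraries biological replicates without saying that they came from separate cultures, and a p-value then reflects only how these libraries vary, possibly for technical reasons.

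The claudins and all 14 gene lists were chosen with earlier results of these data known. Named are all 10 claudins and other claudins with counts. From each other list come up to 4 rising and 4 falling genes with the smallest adjusted p, not all of them printed for marker lists, plus TJP1, OCLN and F11R. Also named are the 2 nearest tested genes on each side of CLDN11 and CLDN2, and the 3 tested genes whose mean log2 CPM is 2 or more and whose profile is most like each. Other genes were named after their values were seen. Python 3.11.15 with scipy 1.17.1 computed the exact test and the promoter words. Alternatives were DESeq2 size factors, the DESeq2 1.42.0 Wald test, no filter beyond 1 count, a block for the replicate number, a stricter filter (1 CPM or more in 4 libraries), leaving out each library, and coding length. Some listed genes are not reported here.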

Additional observations from a re-analysis of the deposited data

Results flagged for a closer look

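In 1 group of the claudins and ATOH8 a library stood far from the other 3. CLDN2 was at 6.64 CPM in control replicate 1, against 7.39 to 7.49 CPM in the other control libraries, a gap of 0.886 of the range of the group. Chance alone flags about 1 in 20 groups of 4. The library still lay far above all knockdown libraries, and the log2 fold change of CLDN2 ran from -2.52 to -2.31 over the 13 alternative fits.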

How the results depend on the processing

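The total counts of called genes in the junction, regulator and neighbour lists stayed within 1.5 times under all alternatives run, and ATOH8 stayed lower. The split by direction moved more. Scaffold genes called lower ran from 2 to 6 (4 with all libraries), and neighbours from 1 to 2 higher and 2 to 3 lower. Membrane partners ran from 3 to 4 called higher and from 1 to 2 called lower. Claudins called lower went from 2 to 3 without control replicate 1 and without knockdown replicate 3. CLDN3 could not be fitted with the filter at 1 CPM. The share of CLDN1 in the summed claudin level moved with the length used, to 81.6% in control and 79.2% in knockdown libraries with coding length. With coding length CLDN2 also stood above CLDN23 in control, and the order of other claudins turned as given above. Same-numbered libraries deviated together only weakly, with correlations of 0.00143 to 0.0574 over 16884 genes. Of the 4 control libraries, 3 correlated best with their own number, and these values cannot decide whether the numbers pair the samples. With the replicate number as a block, 4336 genes were higher and 4466 lower, against 4253 and 4372 without it. Under the block 5 claudins, 4 claudin-like genes, 5 membrane partners, 17 scaffold and polarity genes, 15 regulators, 10 adherens junction genes and 5 neighbours were called, and ATOH8 was at -1.26 in log2. Depth limits CLDN5 and CLDN7 most, and CLDN3 and CLDN11 in control, at 1 to 17 counts per library.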
